A study of Mus musculus with 95 samples.

Results

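The growth hormone and IGF axis was followed through 10 genes in mice kept for 3 months in TLS, a state resembling torpor (the lowered metabolism and body temperature of fasting small mammals). The genes were taken by symbol from a count table of 55401 genes, where each of the 10 has 1 row. They are the hormone gene Igf1, its carrier gene Igfals, the binding-protein genes Igfbp1, Igfbp2, Igfbp3, Igfbp4 and Igfbp5, the receptor genes Igf1r and Ghr, and the feedback gene Socs2. Bulk poly(A) RNA-seq was made from 95 libraries of 4 tissues, namely liver, kidney, white adipose tissue (WAT) and brain cortex, of C57BL/6J mice perfused with PBS. The TLS group, labelled Stim, holds mice collected at 205 days of age after 3 months of TLS; the control group mice of the same age without it; and the time-0 group mice of 122 days, collected at the start. Each group has 8 animals, 4 labelled F and 4 labelled M, and each animal gave the 4 tissues, with 1 exception. WAT has 7 control libraries because the count table holds none for 1 M animal. The labels do not say how the state was induced or whether animals had eaten before collection.

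Growth hormone from the pituitary binds its receptor, encoded by Ghr, which acts through the kinase JAK2 and the transcription factor STAT5. In the liver, the main source of circulating IGF-1, this drives Igf1 and Igfals, whose product holds IGF-1 and IGFBP-3 or IGFBP-5 in a long-lived complex in blood; it also induces Socs2, which limits signalling of the receptor. The other binding proteins carry smaller shares of the hormone: hepatic Igfbp1 is held down by insulin and rises in fasting through FOXO1, and hepatic Igfbp2 is also raised by fasting and lowered by growth hormone. IGF-1 acts through the receptor encoded by Igf1r, which hepatocytes express at low levels.

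On GRCm38 the members lie on 6 chromosomes and all are protein-coding. Igfbp1 (chr11, 7197782 to 7202546, plus strand) and Igfbp3 (7206086 to 7213923, minus strand) end 3539 bases apart, and Igfbp2 (chr1, 72824503 to 72852474, plus strand) and Igfbp5 (72857932 to 72874884, minus strand) end 5457 bases apart. No exon base of a member is shared with another gene of GENCODE vM21.

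The 250 bases upstream of a RefSeq start (GRCm38.p6) are shown for 4 members that carry the results below: Igfbp1, Igfbp2 and Igfbp5, which differed between TLS and control in liver, kidney and cortex, and Igfals, which differed between the sexes in kidney and liver. Capitals mark CAAAACA, the core of the insulin response sequence known from the human IGFBP1 promoter, and TTCNNNGAA, the form of site that STAT5 binds.
Igfbp1 upstream window (chr11:7197537-7197786, plus strand): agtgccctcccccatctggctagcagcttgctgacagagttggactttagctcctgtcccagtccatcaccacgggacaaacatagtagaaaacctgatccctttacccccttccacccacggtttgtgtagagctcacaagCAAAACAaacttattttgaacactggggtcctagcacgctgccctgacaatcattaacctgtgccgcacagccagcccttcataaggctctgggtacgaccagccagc
Igfbp2 upstream window (chr1:72824230-72824479, plus strand): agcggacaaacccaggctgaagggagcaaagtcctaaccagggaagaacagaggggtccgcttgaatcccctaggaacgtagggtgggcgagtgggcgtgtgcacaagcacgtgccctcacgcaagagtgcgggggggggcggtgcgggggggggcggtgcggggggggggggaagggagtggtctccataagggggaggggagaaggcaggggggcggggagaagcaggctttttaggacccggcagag
Igfbp5 upstream window (chr1:72874866-72875115, minus strand): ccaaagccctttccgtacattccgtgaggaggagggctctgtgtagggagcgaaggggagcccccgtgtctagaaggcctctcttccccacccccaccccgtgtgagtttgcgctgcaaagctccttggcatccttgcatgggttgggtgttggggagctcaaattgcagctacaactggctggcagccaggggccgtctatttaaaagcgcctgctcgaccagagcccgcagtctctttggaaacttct
Igfals upstream window (chr17:24877981-24878230, plus strand): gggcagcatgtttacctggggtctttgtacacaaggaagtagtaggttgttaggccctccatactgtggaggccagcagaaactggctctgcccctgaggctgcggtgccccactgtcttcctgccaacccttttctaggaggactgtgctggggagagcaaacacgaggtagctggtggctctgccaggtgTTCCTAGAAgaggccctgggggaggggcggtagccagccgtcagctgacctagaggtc

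CAAAACA, searched on both strands, began 108 bases before the start of Igfbp1 and was in none of the other windows of the 9 members with a RefSeq entry; it was in 6.28% of 32851 mouse windows running from 250 bases before to 50 after a start. TTCNNNGAA, which reads alike in form on both strands, was in 8.3% of those windows and, among the members, in 2 of 3 Igfals windows, beginning 236 and 58 bases before their starts. TATAAA, searched on both strands, was in 13.6% of windows and lay 28 bases before the start of Igfbp4 and 188 bases before a start of Ghr. These matches describe letters in the windows and no binding was measured.

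Levels were first compared across tissues per length, as CPM (counts scaled to a common library size) per kilobase of exon in control animals (mean ± SD; n = 8, in WAT 7). These are shares of each tissue's own counted RNA. The hormone gene Igf1 stood at 64.9 ± 20.1 CPM per kb in liver and 29.7 ± 3.94 in WAT, against 1.12 ± 0.462 in kidney and 0.560 ± 0.0856 in cortex, the last 2 overlapping. Igfals followed the same order, with 42.4 ± 8.87 CPM per kb in liver and 25.0 ± 7.71 in WAT, whose ranges overlapped, and 7.86 ± 4.29 in kidney; in cortex it had 0 to 3 counts per control library. The receptor gene Igf1r had another order, from 10.99 ± 4.25 CPM per kb in kidney through 3.94 ± 0.538 in cortex and 1.51 ± 0.304 in WAT to 0.148 ± 0.0493 in liver, with no overlap between neighbours. Ghr was highest in WAT at 134 ± 26.3 CPM per kb, then kidney at 73.8 ± 11.8, liver at 36.2 ± 4.79 and cortex at 0.910 ± 0.128, also without overlap. Socs2 was low everywhere, at 4.66 ± 3.36 CPM per kb in kidney, 3.23 ± 0.873 in liver, 2.31 ± 0.219 in cortex and 2.22 ± 1.22 in WAT, and all neighbours in this order overlapped.

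Among the binding proteins Igfbp4, which mostly restrains IGF action, had the highest mean in liver, WAT and kidney. It stood there at 359.8 ± 60.6, 292 ± 24.2 and 273 ± 135 CPM per kb, with overlapping ranges. In cortex it had 23.6 ± 3.51, below the means of Igfbp5 and Igfbp2. Igfbp2 stood apart in liver at 209 ± 36.2 CPM per kb, against 27.7 ± 5.43 in cortex, 11.5 ± 12.8 in WAT and 2.40 ± 1.68 in kidney, and the last 3 overlapped in turn. Igfbp5 was highest in WAT at 127 ± 49.9 CPM per kb and overlapped there with kidney at 65.2 ± 18.5; cortex had 30.4 ± 3.69 and liver 2.04 ± 1.13. Igfbp3, which forms the large circulating complex, was a kidney transcript here, with 57.2 ± 9.47 CPM per kb, against 7.08 ± 1.46 in WAT, 3.64 ± 0.613 in cortex and 3.35 ± 0.934 in liver; the last 2 overlapped. Igfbp1 had 4.24 ± 3.62 CPM per kb in kidney and 2.34 ± 1.45 in liver, with overlap, a single WAT control library with counts and none in cortex.

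**Figure D1:**
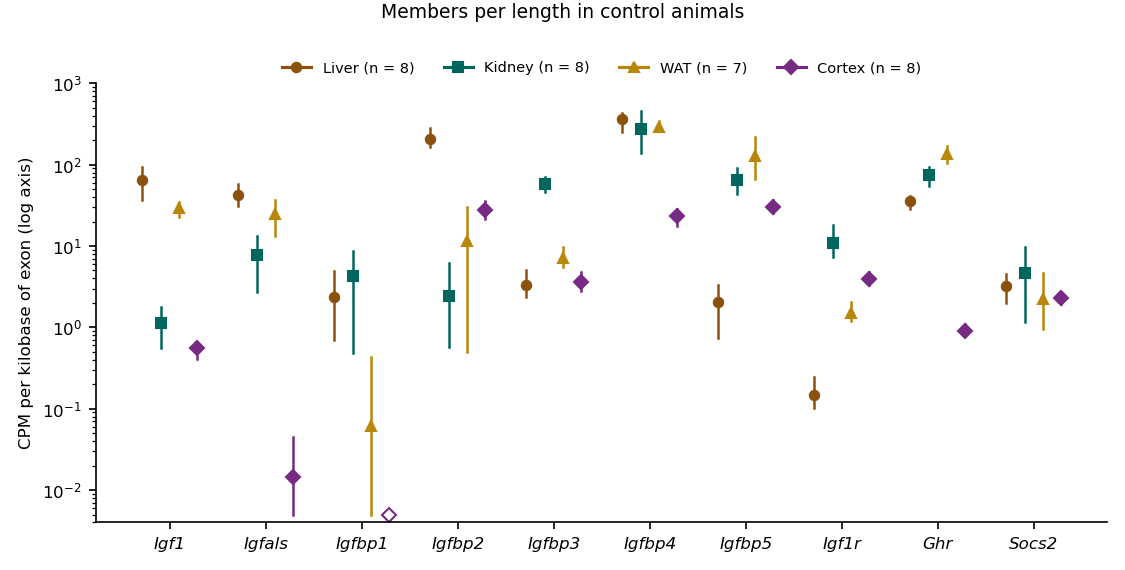
Mean level of each member in control animals as CPM per kilobase of exon on a log axis, with a vertical line from the lowest to the highest animal; an open symbol, and a line running to the bottom of the axis, mark libraries with no counts. Igf1 and Igfals are highest in liver and Igf1r is lowest there, while Igfbp4 is high in liver, WAT and kidney alike.

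Library totals ran from 4031533 to 29269511 counts in liver, 8217875 to 28337864 in kidney, 15881766 to 29089492 in WAT and 14299369 to 22962145 in cortex. Defining markers of the labelled tissue were present in every library. A few libraries stood apart. The TLS M animal A5DA had the highest summed level of the injured kidney tubule list in kidney, 9170.3 CPM, and in liver, 7847 CPM, and the lowest level of the WAT markers in WAT, 7902 CPM. The WAT library of the time-0 M animal T0_6 had 1174 CPM of mammary and ductal epithelium markers, where other WAT libraries reached at most 315 CPM. All 95 libraries matched their F or M label by RNA, but 2 time-0 animals carry the other letter in kidney than in their other tissues, so 2 kidney libraries may belong to each other's animal; tests took each library's own letter. In the labels' library numbers most TLS libraries come before the controls. Whether these numbers follow the order of preparation is not stated, and such an order could not be cleanly told apart from TLS.

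Between TLS and control 4 combinations of member and tissue passed (edgeR quasi-likelihood test, adjusted p below 0.05 over all genes of the tissue). In liver Igfbp1 rose, 1 of 10 members, where 265 of 13604 genes passed (1.95%). Igfbp2 rose in kidney, also 1 of 10, against 0.231% of all genes. In cortex Igfbp5 rose and Socs2 fell, 2 of 8 tested members, against 5.41%. None of 9 members passed in WAT, where 0.00596% of genes did. Igfbp2 and Igfbp4 were the 2 with an unadjusted p below 0.05, which 1857 of 16784 genes had. The median log2 fold change of the members was 0.28 in liver, 0.02 in kidney, -0.0944 in WAT and -0.00442 in cortex, beside 0.0772, 0.0147, 0.0354 and 0.00219 over all genes tested in those tissues. Fewer cells of a type and less RNA per cell cannot be told apart in these bulk samples. Nothing in the labels ties the animals of a group to separate cages or days, so the p-values measure the spread between these animals.

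**Figure D2:**
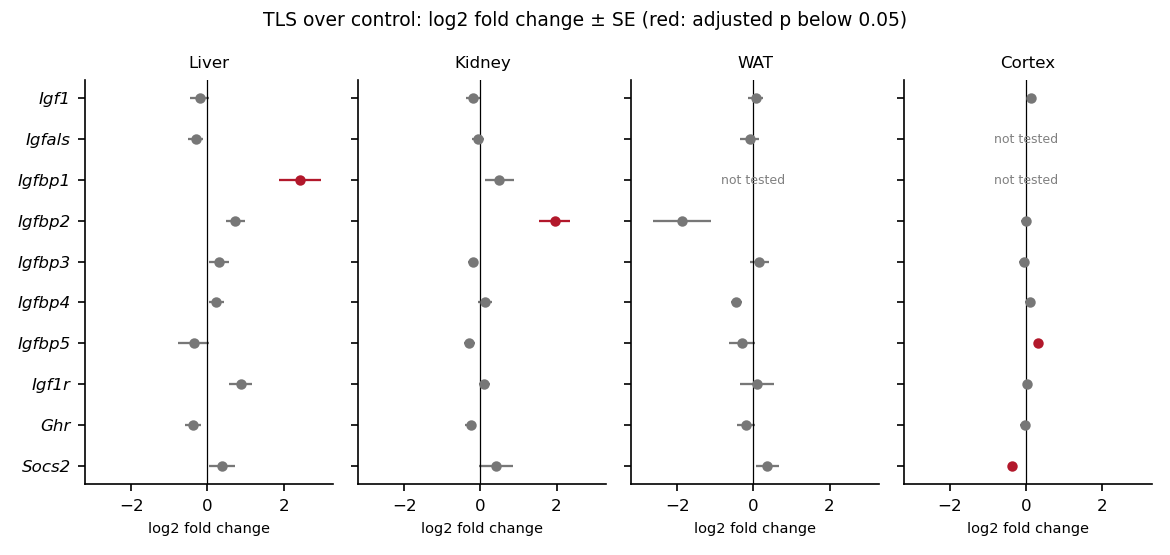
Log2 fold change of TLS over control for each member in liver, kidney, WAT and cortex; points are fitted values, bars are 1 SE, and red marks an adjusted p below 0.05. The 4 red points are Igfbp1 in liver, Igfbp2 in kidney and Igfbp5 and Socs2 in cortex, the cortex values being the smallest in size.

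In the liver Igfbp1, the insulin-suppressed binding-protein gene, had 7.07, 8.87, 37.6 and 40.5 CPM in the 4 M and 4.97, 5.14, 14.3 and 19.2 CPM in the 4 F animals of the TLS group. Controls had 1.06, 1.69, 1.98 and 3.62 CPM in M and 2.45, 4.84, 5.38 and 7.51 CPM in F animals. Every M animal in TLS lay above every M control, while the F ranges met: the lower F animals in TLS lay among the F controls. The groups averaged 17.2 ± 14.3 and 3.57 ± 2.20 CPM (SD, n = 8 each), a log2 fold change of 2.42 ± 0.55 (SE) with an adjusted p of 0.0232; 7 of 8 TLS animals were above the control mean of their sex. The time-0 livers ran from 1.82 to 28.2 CPM (median 11.4), and 5 of the 8 lay above every control. Control against time-0 gave -1.93 ± 0.52 (adjusted p = 0.0989) and TLS against time-0 0.49 ± 0.52 (adjusted p = 0.699). Igfbp1 thus passed the test against the same-age controls and not against the younger mice; each pair of these 3 comparisons shares a group.

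Counts behind these Igfbp1 values were low, 68 to 913 per TLS library and 18 to 156 per control library. The call was lost without the low-count filter (2.41, adjusted p = 0.0716) and without any 1 of 3 controls (adjusted p up to 0.0622), and it held without animal A5DA, whose liver had the highest value (2.09, adjusted p = 0.0263). Fitted by sex in 1 model, the TLS effect on Igfbp1 was 3.49 ± 0.67 in M (adjusted p = 0.0165; 1 of 10 members, 0.39% of genes) and 1.05 ± 0.62 in F animals (no member passed; 0.147% of genes). The difference between the sexes, 2.45 ± 0.89, did not pass (unadjusted p = 0.0108, adjusted p = 0.725; 0.00735% of genes passed). Summed hepatocyte markers ran from 38091 to 91047 CPM in TLS and from 67927 to 125118 CPM in control livers, and their part in the difference was not tested.

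The hormone itself did not pass. Hepatic Igf1 ran from 371 to 931 CPM (median 517) in TLS, from 361 to 918 CPM (median 655) in control and from 338 to 1252 CPM (median 577) in time-0 animals, with TLS over control at -0.20 ± 0.25 (adjusted p = 0.702). The 3 ranges overlapped. Its carrier gene Igfals averaged 111 ± 40.6 CPM in TLS and 134 ± 28.1 in control livers (-0.31 ± 0.20, adjusted p = 0.426), and Ghr 258 ± 120.1 and 327 ± 43.4 CPM (-0.38 ± 0.21, adjusted p = 0.344). Both had lower means in TLS and overlapping ranges. Socs2, induced by growth hormone through STAT5, had 40.3, 49.6, 74.7 and 92.6 CPM in F animals in TLS and 18.7, 22.0, 29.8 and 35.5 CPM in F controls, so these sets did not overlap. M animals had 17.2, 32.6, 33.3 and 33.9 CPM in TLS and 28.3, 29.2, 39.5 and 43.2 CPM in controls. Over both sexes the Socs2 difference was 0.38 ± 0.34 (adjusted p = 0.586), and the M minus F difference of the effect, -1.54 ± 0.50, did not pass (unadjusted p = 0.00522, adjusted p = 0.725).

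Of the remaining hepatic members, Igfbp2 and Igf1r had higher values in TLS that missed the threshold. Igfbp2 ran from 210.3 to 1267 CPM (median 571) in TLS and from 308 to 522 CPM (median 366.9) in control livers (0.73 ± 0.25, adjusted p = 0.122); 6 of 8 TLS animals were above the control mean of their sex, and the animal with the lowest value, A5DA at 210.3 CPM, was below every control. Without A5DA the Igfbp2 value passed, at an adjusted p of 0.0300. Igf1r ran from 1.43 to 8.50 CPM (median 4.49) in TLS and from 1.70 to 4.16 CPM (median 2.29) in control livers (0.87 ± 0.30, adjusted p = 0.128), on 17 to 167 and 20 to 51 counts; without the F animal B23B it passed (adjusted p = 0.0258). Igfbp3 (0.32 ± 0.26) and Igfbp4 (0.24 ± 0.20) had overlapping ranges and adjusted p of 0.549 and 0.567. Hepatic Igfbp5 had 4.04, 7.37, 10.1 and 12.5 CPM (M) and 2.76, 3.82, 4.001 and 20.8 CPM (F) in TLS, against 4.504, 5.38, 5.99 and 9.12 CPM (M) and 14.0, 19.2, 19.7 and 19.9 CPM (F) in controls. In F animals 3 of the 4 TLS values lay below every control and the other above, while the M ranges overlapped. Over both sexes Igfbp5 was -0.35 ± 0.41, adjusted p = 0.679. Fitted by sex it was 0.45 in M and -1.19 in F animals. The M minus F difference of 1.64 ± 0.76 did not pass (unadjusted p = 0.0404, adjusted p = 0.799).

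**Figure D3:**
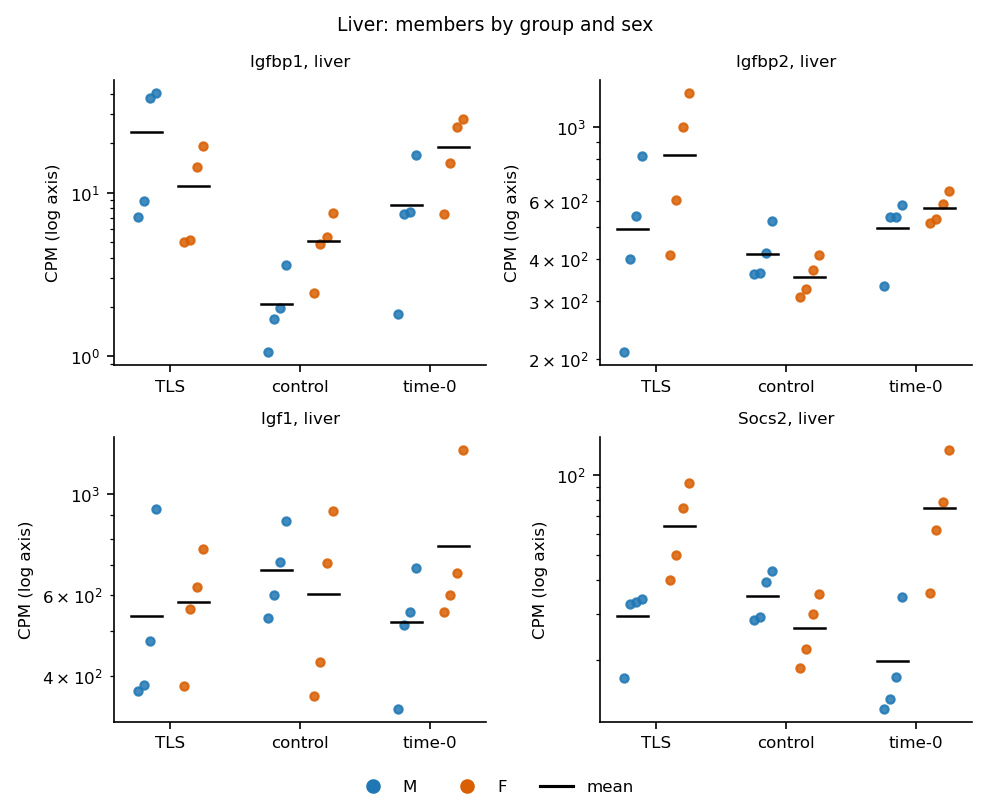
CPM of Igfbp1, Igfbp2, Igf1 and Socs2 in each liver on a log axis, by group (TLS, control, time-0) and sex; points are animals and lines the means of 4. The means of Igfbp1 are lowest in controls, Igf1 overlaps in all groups, and Socs2 is higher in F than in M animals of the TLS and time-0 groups.

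In the kidney Igfbp2 was the member that rose. TLS animals had 9.21, 9.26, 14.3 and 18.0 CPM (M) and 4.61, 14.9, 18.8 and 48.7 CPM (F), against 1.07, 2.64, 4.05 and 4.12 CPM (M) and 2.71, 3.95, 5.48 and 11.4 CPM (F) in controls. All M animals in TLS were above all M controls, and 1 F animal in TLS lay within the F controls. The means were 17.2 ± 13.6 and 4.43 ± 3.11 CPM (SD, n = 8 each), a log2 fold change of 1.95 ± 0.40 with an adjusted p of 0.0370. In the younger time-0 mice Igfbp2 ran from 2.39 to 9.13 CPM (median 6.27); TLS against time-0 gave 1.41 ± 0.40 (adjusted p = 0.0927). Fitted by sex, the values were 2.08 in M and 1.86 in F animals; their difference of 0.22 ± 0.78 did not pass (adjusted p = 0.952; 0% of genes passed).

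The margin of the Igfbp2 call was thin: the fold change stayed between 1.55 and 2.25 in 32 alternatives, but the adjusted p passed in 11 of them, and without the highest animal it was 0.108. Without A5DA it was 1.86, adjusted p = 0.0623. The injured kidney tubule list summed to 459 to 9170.3 CPM in TLS and 415 to 1212 CPM in control kidneys, with none of its 6 tested genes passing, and its part in the difference was not tested. Other kidney members did not pass. Igfbp1 had 6.67 ± 3.72 CPM in TLS and 6.47 ± 5.52 in controls (0.50 ± 0.37, adjusted p = 0.738), Igf1 9.25 ± 3.10 and 11.1 ± 4.57 CPM, and Ghr 563 ± 144 and 668 ± 107 CPM (-0.25 ± 0.15, adjusted p = 0.667). For Igfbp3 and Igfbp5, 1 of 8 TLS kidneys was above the control mean of its sex (-0.20 ± 0.11 and -0.29 ± 0.15, adjusted p = 0.626 and 0.604).

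Igfbp2 was also the member whose TLS effect passed as different between tissues. The log2 fold changes were 0.73 in liver, 1.95 in kidney, -1.87 in WAT and -0.02 in cortex. The joint test over tissues gave F = 9.00 with an adjusted p of 0.0121, 1 of 10 members, where 2.43% of 20294 genes passed; with the animal as a block it was 0.0749, and no member passed. Without animal A5DA the adjusted p was 0.0110, and with the block 0.0836. In WAT Igfbp2 had 0.431, 7.03, 13.4 and 13.8 CPM (M) and 0.514, 3.65, 5.99 and 6.68 CPM (F) in TLS, against 11.3, 26.2 and 50.5 CPM (M) and 0.921, 0.958, 2.86 and 56.3 CPM (F) in controls. The F controls alone spanned nearly the whole range, and the WAT test did not pass (-1.87 ± 0.76, adjusted p = 0.363).

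In the cortex the changes were smaller and the replicates tighter. Igfbp5, whose product binds IGFs and extracellular matrix, had 224, 236, 256 and 263 CPM in M and 181, 191, 204 and 241 CPM in F animals in TLS, against 151, 166, 167 and 178 CPM in M and 184, 189, 205 and 219 CPM in F controls. The M groups were fully apart and the F groups overlapped. Over both sexes Igfbp5 rose by 0.30 ± 0.08 (adjusted p = 0.0335). Fitted by sex, the effect was 0.56 ± 0.09 in M and 0.04 ± 0.09 in F animals, and the M minus F difference of 0.53 ± 0.13 passed (adjusted p = 0.0236; 1 of 8 members, 5.08% of genes), but not without any 1 of 3 libraries (adjusted p up to 0.0603). Against the time-0 mice, which had 158 ± 16.9 CPM (SD, n = 8), the TLS animals with 225 ± 29.9 CPM (SD, n = 8) were higher by 0.51 ± 0.08 (adjusted p = 3.70e-05).

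Socs2 fell in the cortex. TLS animals had 15.2, 15.6, 16.0 and 16.7 CPM (M) and 15.2, 16.8, 19.6 and 21.4 CPM (F), controls 21.8, 22.1, 22.3 and 24.7 CPM (M) and 18.5, 19.6, 22.8 and 24.1 CPM (F). Again the M animals were fully apart and the F animals overlapped. The log2 fold change was -0.36 ± 0.08 (adjusted p = 0.0128), with -0.52 in M and -0.22 in F animals when fitted by sex. That difference between the sexes, -0.30 ± 0.15, did not pass (adjusted p = 0.228). By sex, 2 of 8 members passed in M (16.6% of genes) and none in F animals (0.433%).

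A measure of RNA makeup moved with these groups. The share of counts from the nuclear RNAs Malat1, Neat1 and Meg3 was 0.212% to 0.318% in M and 0.209% to 0.308% in F animals in TLS, against 0.577% to 0.681% in M and 0.214% to 0.417% in F controls, so the M controls stood apart. With this share as a covariate neither call held: Igfbp5 was 0.14, adjusted p = 0.702, and Socs2 was -0.27, adjusted p = 0.384. In M animals the share did not overlap between TLS and control, so this fit could hardly tell share and group apart there. The M minus F difference of the Igfbp5 effect was not fitted with this share. Macrophage markers, of which 3 of 5 passed as higher, summed to 34.3 to 64.4 CPM in TLS and 27.6 to 35.8 CPM in control cortex; their part was not tested. Both calls were also lost in the F libraries alone (Igfbp5 0.03, adjusted p = 0.964, and Socs2 -0.23, adjusted p = 0.608). The Igfbp5 call was lost without any 1 of 9 TLS or control libraries, where adjusted p reached 0.0871. Socs2 passed each time a library was left out.

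**Figure D4:**
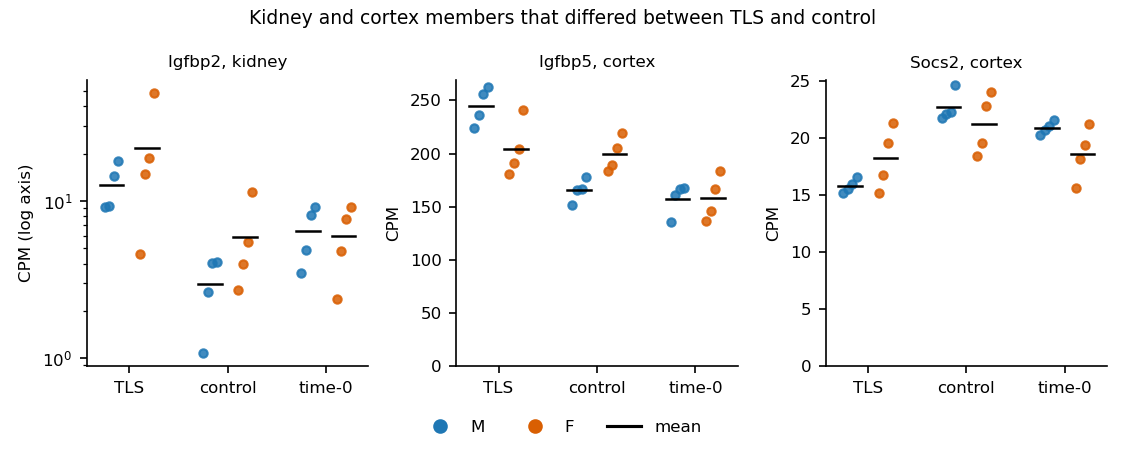
CPM of Igfbp2 in kidney (log axis) and of Igfbp5 and Socs2 in cortex (axes from 0) in each animal, by group (TLS, control, time-0) and sex; lines are means of 4 animals. The M animals of the TLS group are apart from the M controls in all 3 panels.

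The other 6 tested cortex members, Igf1, Igf1r, Igfbp2, Igfbp3, Igfbp4 and Ghr, had TLS over control log2 fold changes between -0.05 and 0.12 with adjusted p of 0.595 or more. SE of these values lay between 0.09 and 0.13. Igfals and Igfbp1 were too low in cortex to be tested, with at most 6 and 3 counts in a library.

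In WAT no member passed between TLS and control, by edgeR or by DESeq2. Igfbp4 came nearest in level: the TLS animals had 576, 613, 932 and 1179 CPM (M) and 963, 1045, 1086 and 1169.7 CPM (F), all below the 3 M controls with 1198, 1273 and 1502 CPM and the 4 F controls with 1202, 1218, 1299 and 1330.3 CPM. The groups did not overlap, yet the fold change of -0.45 ± 0.15 did not pass over all genes (unadjusted p = 0.00686, adjusted p = 0.270). Skeletal muscle markers summed to 12.1 to 5244 CPM in TLS and 37.1 to 230.2 CPM in control WAT. Kidney markers summed to 11.6 to 141 and 6.43 to 36.0 CPM. No gene of either list passed, and their part in the WAT values was not tested. Igf1 averaged 299 ± 37.7 CPM in TLS (n = 8) and 294 ± 39.0 CPM in controls (n = 7), at 0.07 ± 0.20. Igfals (-0.09 ± 0.24), Ghr (-0.20 ± 0.23), Igf1r (0.10 ± 0.45), Igfbp3 (0.15 ± 0.25), Igfbp5 (-0.30 ± 0.35) and Socs2 (0.37 ± 0.30) had overlapping ranges. The WAT of A5DA had the lowest Igfbp5 of all WAT libraries, 61.0 CPM. Macrophage markers in WAT summed to at most 5907 CPM in the TLS group and 1108 CPM in controls.

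Control against time-0, groups that differ in age and in time of collection, had 1 member past the test. In cortex Igfbp2 rose to 51.1 ± 10.0 CPM in controls, against 38.4 ± 4.86 CPM in time-0 mice (SD, n = 8 each), a log2 fold change of 0.41 ± 0.12 (adjusted p = 0.0196). All 8 controls were above the time-0 mean of their sex. That is 1 of 8 members, where 21.2% of all cortex genes passed, a higher share. Choroid plexus, an Igfbp2-rich tissue beside the cortex, moved with it: its 6 markers summed to 19.2 to 93.5 CPM in controls and 3.87 to 50.5 CPM in time-0 mice, 3 of 6 passed as higher, and its part in the Igfbp2 value was not tested. No member passed between control and time-0 in liver (0.529% of genes), kidney (0.312%) or WAT (0.161%) by edgeR. There 1, 3 and 3 members had an unadjusted p below 0.05, as had 2057 of 13604, 1804 of 16005 and 1953 of 16784 genes. DESeq2 called 1, 1 and 0 members, and its share over all genes is not given here. The largest of these values were Igfbp1 in liver, above, and Igfbp1 in kidney, where controls had 6.47 ± 5.52 and time-0 mice 13.6 ± 11.3 CPM (-1.16 ± 0.36, adjusted p = 0.191) and all 8 controls were below the time-0 mean of their sex.

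TLS against time-0, which shares its TLS and time-0 animals with the comparisons above, passed for 3 of 8 members in cortex, where 35.7% of genes passed: Igfbp2 (0.39 ± 0.12, adjusted p = 0.0152), Igfbp5 (given above) and Socs2 (-0.21 ± 0.08, adjusted p = 0.0446). With the nuclear RNA share as covariate none of the 3 passed: Igfbp2 was 0.35, adjusted p = 0.315, Igfbp5 0.26, adjusted p = 0.200 and Socs2 -0.07, adjusted p = 0.782. That share was 0.452% to 0.548% in M and 0.521% to 0.603% in F time-0 cortex, above every TLS cortex. This fit could therefore hardly tell the share from the group. The Socs2 call held in 11 of 32 alternatives. Choroid plexus markers, 2 of 6 passing as higher, summed to 6.74 to 89.0 CPM in TLS and 3.87 to 50.5 CPM in time-0 cortex. Macrophage markers, 4 of 5 passing as higher, summed to 34.3 to 64.4 and 22.8 to 30.6 CPM. The part of either list in these values was not tested. Cortical Igfbp2 stood at 50.6 ± 10.5 CPM in TLS and Socs2 at 17.0 ± 2.26 CPM in TLS against 19.8 ± 1.99 CPM in time-0 mice. No member passed in liver (1.34%), kidney (0.681%) or WAT (0.226%) by edgeR. There 0, 3 and 2 members had an unadjusted p below 0.05, as had 2021 of 13604, 2420 of 16005 and 2196 of 16784 genes. DESeq2 called 0, 3 and 0 members, and its share over all genes is not given here. In kidney Igfals (-0.58 ± 0.16, adjusted p = 0.0806) and Igfbp3 (-0.39 ± 0.11, adjusted p = 0.0906) came nearest; all 8 TLS kidneys had less Igfbp3 than the time-0 mean of their sex.

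In kidney 7 of 10 members passed between M and F animals over the 3 groups, 5 lower and 2 higher in M, where 46.8% of all kidney genes passed. Igfbp1 had 0.729 to 9.36 CPM (median 3.13) in 12 M and 6.02 to 31.7 CPM (median 11.8) in 12 F animals. The log2 fold change was -2.07 ± 0.31 (adjusted p = 6.72e-06). Igfals ran from 8.57 to 19.7 CPM (median 14.1) in M and from 24.5 to 71.9 CPM (median 39.4) in F animals, without overlap (-1.59 ± 0.13, adjusted p = 4.80e-10). Socs2 was lower in M, at -1.31 ± 0.37 (adjusted p = 0.00533), with 25.7 ± 30.7 CPM in M and 59.3 ± 20.9 CPM in F animals. The M mean includes A5DA with 121 CPM, the highest of all 24 kidneys, where the next M animal had 31.9.

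Kidney Igf1, at 7.32 ± 1.72 CPM in M and 12.0 ± 3.18 CPM in F animals, was also lower in M (-0.69 ± 0.15, adjusted p = 4.64e-04), and so was Igfbp5 (293 ± 54.9 and 402 ± 94.99 CPM; -0.44 ± 0.12, adjusted p = 0.00433). Higher in M were the receptor gene Igf1r, with 229.8 ± 48.8 and 149 ± 26.0 CPM (0.63 ± 0.12, adjusted p = 8.99e-05), and Igfbp4, with 1573 ± 349 and 969 ± 283 CPM (0.73 ± 0.15, adjusted p = 3.73e-04). Igfbp2, Igfbp3 and Ghr did not pass, at -0.56 ± 0.33, -0.09 ± 0.09 and 0.04 ± 0.12. All 7 calls held in each of 28 alternatives. No member's TLS effect passed as different between the sexes in kidney, although Igfbp1 (1.82 ± 0.66) and Socs2 (1.95 ± 0.76) had unadjusted p of 0.0112 and 0.0180.

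**Figure D5:**
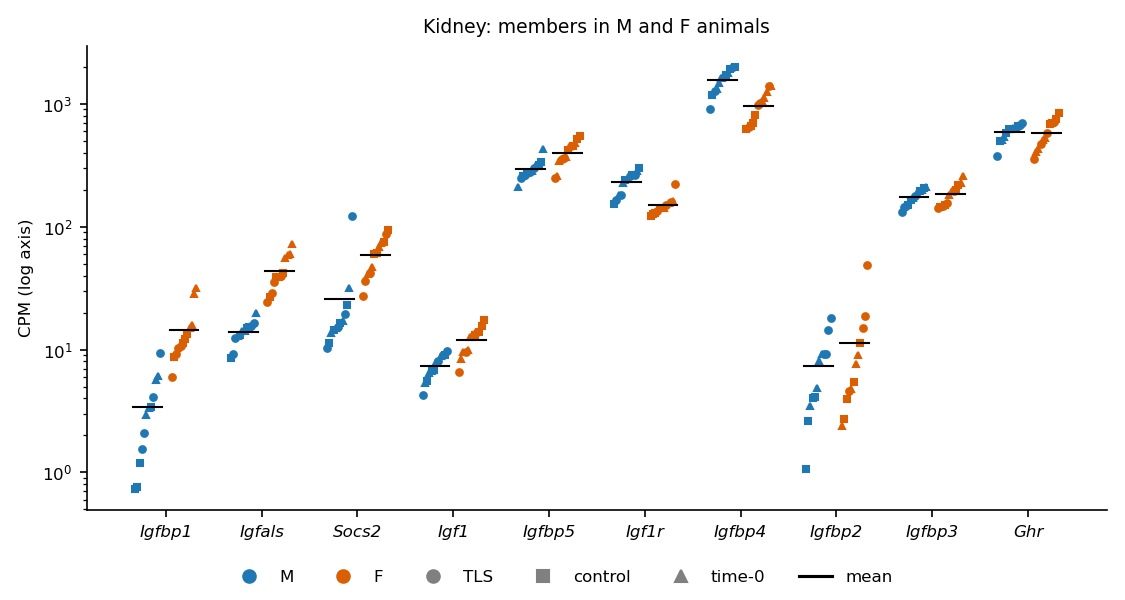
CPM of the 10 members in each of 24 kidneys on a log axis, M left of F for each gene; symbols give the group and lines the mean of 12 animals. Igfbp1, Igfals, Socs2, Igf1 and Igfbp5 are lower and Igf1r and Igfbp4 higher in M animals, and the M and F points of Igfals do not overlap.

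In liver only Igfals passed between the sexes, with 102 ± 26.4 CPM in M and 146 ± 35.5 CPM in F animals (-0.52 ± 0.16, adjusted p = 0.0471; 1 of 10 members, 6.4% of genes), and this call held in 8 of 28 alternatives. Socs2 was near it, at 28.0 ± 10.1 and 55.3 ± 31.9 CPM (-0.90 ± 0.29, adjusted p = 0.0582). Hepatic Igf1 had 581 ± 190.3 CPM in M and 652 ± 248 CPM in F animals (-0.16 ± 0.21, adjusted p = 0.767). In WAT 2 of 9 members passed, both lower in M (11.8% of genes): Igfbp5 with 483 ± 242 CPM in M and 939 ± 271 CPM in F animals (-0.94 ± 0.28, adjusted p = 0.0330), and Socs2 with 16.6 ± 5.77 and 31.4 ± 15.1 CPM (-0.95 ± 0.24, adjusted p = 0.0103). The WAT Igfbp5 call was lost without any 1 of 9 libraries, among them that of time-0 animal T0_6 (adjusted p = 0.0537). It was also lost without the low-count filter (-0.93, adjusted p = 0.0544) and with the nuclear RNA share as covariate (-0.55, adjusted p = 0.348). No member passed in cortex by edgeR or DESeq2 (0.126% of genes by edgeR). There 2 members had an unadjusted p below 0.05, as had 1861 of 16609 genes. No TLS effect in WAT passed as different between the sexes (0% of genes).

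The wider pathway was read from 3 lists. Alternatives and left-out libraries were read for the members only, so how far a list call depends on 1 library was not tested. Of 26 genes of growth hormone and IGF signalling beyond the members, 17 were tested in liver and 2 rose in TLS against control, none fell, where 1.95% of all liver genes passed (median log2 fold change 0.37, beside 0.0772 over all genes). Irs2, the insulin receptor substrate that FOXO1 induces in fasting, had 7.11 ± 3.50 CPM in TLS and 3.18 ± 2.20 CPM in control livers (SD, n = 8 each; 1.45 ± 0.36, adjusted p = 0.0369). Socs3, a cytokine-induced inhibitor of JAK signalling, had 20.8 ± 23.6 and 6.05 ± 2.22 CPM (1.67 ± 0.44, adjusted p = 0.0467). None passed in that comparison in kidney (21 tested), WAT (21) or cortex (22).

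All 16 FOXO1 and fasting-responsive genes were tested in liver, and 2 rose in TLS while none fell (median 0.47; 1.95% of all genes passed). They were Pck1, the gluconeogenic enzyme, with 2387 ± 1127 CPM in TLS and 1125 ± 483 CPM in controls (1.07 ± 0.28, adjusted p = 0.0472), and Cebpb, a transcription factor of the fasting response, with 189 ± 71.5 and 108 ± 21.6 CPM (0.80 ± 0.20, adjusted p = 0.0346). In cortex 2 of 11 tested rose, Txnip (0.62 ± 0.10, adjusted p = 0.00140) and Cpt1a (0.35 ± 0.10, adjusted p = 0.0430), where 5.41% of all genes passed, and none of 13 in kidney or of 13 in WAT passed. Control against time-0 in liver had 1 gene lower in each of these lists, of 17 and 16 tested, where 0.529% of all genes passed. They were Irs2 (-1.98 ± 0.35, adjusted p = 0.00425) and Trib3 (-1.92 ± 0.29, adjusted p = 9.65e-04). Trib3 was also lower in TLS than in time-0 livers (-1.19 ± 0.28, adjusted p = 0.0351), 1 of 16 in the fasting list, where 1.34% of all genes passed. Against time-0, TLS cortex had 7 of 11 genes of this list higher and none lower, led by Txnip (0.62 ± 0.09, adjusted p = 1.62e-05) and Angptl4 (1.06 ± 0.26, adjusted p = 0.00217), then Pdk4 and Trib3; 35.7% of all cortex genes passed there.

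The third list holds 20 liver genes whose sex bias is set by the pattern of growth hormone release. All 20 were tested in liver and 19 passed between M and F animals, 9 higher and 10 lower in M, where 6.4% of all liver genes passed. The genes were listed for a known sex bias. Among them were Cyp2d9 (5.66 ± 0.25, adjusted p = 1.93e-15), Cyp2b13 (-10.93 ± 0.52, adjusted p = 7.34e-15) and Cux2 (-7.58 ± 0.37, adjusted p = 7.36e-15). Where 1 sex is near 0 the size of such a fitted fold change depends on the prior count. Between TLS and control 1 of the 20 passed, where 1.95% of all liver genes did. Cyp3a41a, a female-biased cytochrome gene, fell (-3.43 ± 0.81, adjusted p = 0.0304), with 2.88 ± 5.74 CPM in TLS and 36.3 ± 49.2 CPM in controls. The list's median was -0.28. None of its 9 tested genes passed in kidney, of 5 in WAT or of 5 in cortex. TLS against time-0 in liver had 4 of 20 lower and none higher, where 1.34% of all genes passed. They were Cyp3a41a (-3.55 ± 0.82, adjusted p = 0.0300), Hsd3b5 (-2.83 ± 0.67, adjusted p = 0.0353), Cyp7b1 (-1.07 ± 0.26, adjusted p = 0.0369) and Sult3a1 (-2.95 ± 0.74, adjusted p = 0.0442). Hsd3b5 and Cyp7b1 are male-biased genes and Cyp3a41a and Sult3a1 female-biased ones, and in these livers the first pair was higher in M and the second in F animals by the test above. Cyp3a41a and Cyp3a41b, and Cyp4a12a and Cyp4a12b, are near-identical copies whose reads the counting could have split, so their values are uncertain.

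Between the sexes the pathway list changed in kidney, with 3 higher and 11 lower in M of 21 tested, where 46.8% of all genes passed. Prlr, the receptor for prolactin (-3.61 ± 0.30, adjusted p = 8.71e-10), Igf2 (a fitted -7.74 ± 0.68, adjusted p = 1.56e-09), Irs1 (-0.99 ± 0.12, adjusted p = 1.90e-07) and Htra1 (0.98 ± 0.12, adjusted p = 3.21e-07) had the smallest p, and of these Htra1 was the one higher in M. Liver had 2 of 17 lower in M, Prlr (-2.25 ± 0.22, adjusted p = 1.64e-08) and Irs2 (-0.97 ± 0.29, adjusted p = 0.0396), and none higher, where 6.4% of all genes passed. WAT had 1 higher and 6 lower of 21, where 11.8% of all genes passed, led by Grb10 (-1.08 ± 0.13, adjusted p = 6.32e-06), Grb14 (2.49 ± 0.34, adjusted p = 2.33e-05), Igfbp6 (-1.59 ± 0.22, adjusted p = 3.94e-05) and Igfbp7 (-0.74 ± 0.11, adjusted p = 5.42e-05), of which Grb14 was the one higher in M, and cortex none of 22. Between control and time-0 in cortex the pathway list had 2 genes higher, Grb14 (0.24 ± 0.06, adjusted p = 0.00951) and Grb10 (0.24 ± 0.07, adjusted p = 0.0130), and 3 lower, among them Irs2 (-0.46 ± 0.11, adjusted p = 0.00347) and Jak2 (-0.22 ± 0.06, adjusted p = 0.0144), 5 of 22, a share near the 21.2% of all cortex genes that passed.

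Genes whose log2 CPM followed the called members most closely are given as a description, over all libraries of a tissue and which share the differences of group and sex (n = 24 each). For hepatic Igfbp1 they were Ip6k2 (r = 0.72), Bloc1s3 (r = 0.72) and B930025P03Rik (r = 0.69). For kidney Igfbp2 they were Psca (r = 0.82), Traf3ip2 (r = 0.75) and Sprr1a (r = 0.73); Psca and Sprr1a encode an epithelial surface protein and a cornified envelope protein. Cortical Igfbp5 was followed by Micall1 (r = 0.92), Btbd3 (r = 0.90) and Prkd3 (r = 0.89), and cortical Socs2 by Gm47163 (r = 0.87), 2900022M07Rik (r = 0.83) and Shf (r = 0.80).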

How the data were processed

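Whole tissues of 24 mice were sequenced as poly(A) RNA on an Illumina NovaSeq after NEBNext Ultra II library preparation, per the labels' protocols. The deposited values are raw counts per gene, made by the authors with featureCounts per the file headers; the submitters' processing notes name STAR 2.7.10, DESeq2 and the build mm10. The first line of the count table calls it corrected, without saying what was corrected. The table has 55401 genes, and 53292 of its symbols are in GENCODE vM21, which gave positions and exon lengths. No 2 libraries were identical.

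Within each tissue, genes were kept by edgeR's filterByExpr (minimum count 10), scaled by TMM and fitted with the quasi-likelihood test (edgeR 4.0.16, R 4.3.3) on group with sex as covariate, over all genes and all 3 groups. P-values were adjusted by Benjamini-Hochberg over all genes tested in the tissue, with a threshold of 0.05. Of the 10 members, 10 passed the filter in liver and in kidney, 9 in WAT (not Igfbp1) and 8 in cortex (not Igfals and Igfbp1). CPM are counts scaled by the TMM library size, log2 values use a prior count of 2, and an SE was taken from the fold change and its F. A fit crossing sex and group tested the M minus F difference of the TLS effect, and a joint fit of TLS and control libraries tested it between tissues.

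Animals link the tissues: deviations from the mean of group and sex correlated at a mean r of 0.0554 in 93 pairs of libraries of the same animal and -0.0165 in 279 pairs of different animals. The animal was therefore added as a block in an alternative of the joint fit. Other alternatives were RLE size factors, no low-count filter, DESeq2 1.42.0, no sex covariate, only the 2 groups compared, each sex alone, the nuclear RNA share as covariate and each library left out. Alternatives without animal A5DA in the joint fit and those for the comparison of the sexes were chosen after seeing the data. The fits were tested on simulated data.

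The members and gene lists were chosen with earlier results of these data known. Genes of a list are named where they passed the test, up to 4 a comparison by the smallest p (1 of them is not reported here), and the 3 genes most like a called member by Pearson's r over the libraries of the tissue. Promoter sequences are from RefSeq on GRCm38.p6; 9 of the 10 members matched.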

Additional observations from a re-analysis of the deposited data

Results flagged for a closer look

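Each group of 8 animals (7 in WAT controls) was searched for a library far from the rest, in 111 combinations of member, tissue and group; chance alone gives such a library in about 5% of groups. On the log2 CPM scale, 6 of the 111 were found, a share near the one that chance alone gives. In time-0 cortex, Igfbp2 was 4.82 in 1 animal, where the next was at 5.14. In time-0 liver 1 M animal, T0_7, was low in both Igfbp2, at 8.38 with the next at 9.01, and Igfbp3, at 2.39 with the next at 3.60. In time-0 WAT the M animal T0_6 was high in Igf1r, at 8.22 with the next at 5.07, and low in Ghr, at 8.53 with the next at 10.18; this library also had the highest mammary and ductal epithelium marker sum. In TLS WAT animal A5DA was low in Igfbp5, at 5.93 with the next at 8.31. The part of the tissue makeup in these values was not tested.

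The TLS effect on cortical Igfbp5 differed between the sexes by a log2 value of 0.53, M minus F, in the test of that difference. The call was lost when some single libraries were left out (adjusted p up to 0.0603). The nuclear RNA share ran from 0.577% to 0.681% in M and from 0.214% to 0.417% in F control cortex. Its part in this difference was not tested. The TLS effect on Igfbp2 differed between tissues, with F = 9.00 in the joint test; the tissues share animals, and with the animal as a block the difference did not pass (adjusted p = 0.0749).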

How the results depend on the processing

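None of the 19 member values that passed changed sign in any alternative run. Of 166 member values that did not pass, 20 passed in at least 1 alternative, and of the 19, 8 passed in every one; the 7 kidney differences between M and F are among the 8. The cause was not tested for any value below. The counts of members below come without the share of all genes that passed in the same alternative. A changed count therefore cannot be read as a result about the members.

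For TLS against control, 2 members passed in cortex, 1 with only the 2 groups compared and 0 with F libraries alone or with the nuclear RNA share as covariate. In kidney the count of 1 became 0 without the low-count filter, without the sex covariate, with only the 2 groups compared, with M or F libraries alone and with the nuclear RNA share. In liver it became 0 without the filter, with only the 2 groups compared and with M or F libraries alone. For control against time-0, the cortex count of 1 became 0 without the filter and with M libraries alone, and 2 with only the 2 groups compared and with F libraries alone; in F alone these are other members, since Igfbp2 did not pass there (0.53, adjusted p = 0.0562). The kidney count of 0 became 1 by DESeq2 and with only the 2 groups compared, and 4 with F libraries alone; the liver count of 0 became 1 by DESeq2, with only the 2 groups compared and with the nuclear RNA share. For TLS against time-0, groups whose nuclear RNA shares in cortex did not overlap, the cortex count of 3 became 0 with that share as covariate. It became 2 with RLE size factors, without the filter, by DESeq2, with only the 2 groups compared and with F libraries alone, each time without Socs2 (adjusted p between 0.0508 and 0.938), and 2 with M libraries alone, without Igfbp2 (adjusted p = 0.368). In that comparison, the kidney count of 0 became 3 by DESeq2 and 2 with F libraries alone.

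Between the sexes, the liver count of 1 became 0 with RLE size factors and without the filter, and 2 by DESeq2 and with the nuclear RNA share; the WAT count of 2 became 1 with that share. The WAT Igfbp5 call was also lost without the filter (adjusted p = 0.0544). The TLS effect differed between the sexes for 0 members in liver and for 2 without the filter. Between tissues 1 member passed, and 0 with the animal as a replicate block, both with all animals and without A5DA.

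Leaving out each library in turn gave 1 to 2 members in cortex, 0 to 1 in kidney and 0 to 2 in liver for TLS against control. It gave 1 to 2 in cortex and 0 to 1 in kidney for control against time-0, and 2 to 3 in cortex and 0 to 1 in kidney for TLS against time-0. Between the sexes it gave 7 in kidney each time, 0 to 2 in liver and 1 to 3 in WAT, and for the M minus F difference in cortex 0 to 1. Without animal A5DA the count between tissues was 0 to 1, the 0 being with the block. The other counts stayed at 0. Low counts limit Igfbp1 and Igf1r in liver, Igfbp2 in kidney and Igfbp1 in WAT and cortex.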
